A study of Rattus norvegicus with 6 samples.

Results

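The genes described here are 8 regulators of pacemaking and cardiac conduction in the rat: the pacemaker channel genes Hcn2, Hcn3 and Hcn4, the transcription factor genes Tbx3 and Shox2, and the Popeye domain genes Bves, Popdc2 and Popdc3. They were chosen by name, and all 8 had a probe on the array, with 9 of the 30367 probes in all because Shox2 had a pair of them. Of these 9 probes, 6 were measurable and tested, 1 each for Hcn3, Hcn4, Tbx3, Bves, Popdc2 and Popdc3, among 19299 tested probes. Popdc3 is listed on the array under the placeholder symbol LOC641520 and was found through its RefSeq transcript.

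The HCN channels open when the cell membrane hyperpolarizes and carry an inward current, which binding of cAMP increases in some of the channels. Hcn4 is the main channel of the sinoatrial node and is also expressed in the early heart tube. Tbx3 is a T-box repressor that keeps working heart muscle genes off in the conduction system, and Shox2 is a homeodomain factor of the sinus venosus that represses Nkx2-5. The Popeye domain proteins are membrane proteins of striated muscle that bind cAMP, interact with the potassium channel encoded by Kcnk2, and Bves and Popdc2 are needed for normal sinus node function under stress in mice.

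Heart primordia were taken from rat embryos on embryonic day 10, with the strain labelled Wister rat, around the time the first contractions start. The pre-heartbeat group, with 3 samples, had primordia of flat central shape. The post-heartbeat group, with 3 samples, had primordia of raised central shape from embryos of a later range of somite numbers, which overlapped that of the pre-heartbeat group. The study states that it told the groups apart only on the basis of earlier ex vivo work. Before and after the first heartbeat stand here for these groups. No treatment or genetic change was applied, and the labels call the samples biological replicates, while whether a sample of RNA held 1 or several primordia was not given in the sources used here. Total RNA was hybridized to 1-color Agilent arrays, 1 array per sample. Levels are given as log2 of the signal relative to the 75th percentile of the same array, so that 1 unit is a 2-fold difference and 0 is the signal at that percentile, and a change is the post-heartbeat mean less the pre-heartbeat mean. A level is compared between arrays for the same probe only, never between probes.

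The 75th percentile was 1142.82 to 1694.14 intensity units, and 39375 to 41327 spots of 58717 per array were well above background, with 0 saturated. The arrays were on 2 slides. On slide 1 were 1 pre-heartbeat array (replicate 1) and 2 post-heartbeat arrays (replicates 1 and 2), and on slide 2 were the other 3. The slides lay apart on the first principal component (60.2% of the variance), and 3109 of the tested probes (16.1%) differed between slides by limma (adjusted p under 0.05, with the group in the fit). Each change of a measured gene is therefore given also with the slide as a block, and within each slide. The labelled tissue was checked with 10 genes of cardiac muscle. All 10 were well above background in at least 1 group, and their mean level per array ranged from 3.64 to 4.04 before and from 4.83 to 4.91 after the first heartbeat.

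None of the 6 measured genes passed the limma threshold of an adjusted p under 0.05, while 24 of the tested probes (0.124%) were called higher and 4 (0.0207%) lower in the post-heartbeat group. Hcn4, Bves and Popdc2 had higher levels in all 3 post-heartbeat arrays than in any pre-heartbeat array, as did 5.38% of all tested probes, while the opposite order held for 0 of the 6 genes and 6.17% of all tested probes. Tbx3, Popdc3 and Hcn3 overlapped between the groups. Hcn2 and Shox2 were not well above background on any array. At an unadjusted limma p under 0.05, which 7% of all tested probes reached in either direction, 3 of the 6 genes were found, namely Hcn4, Bves and Popdc2.

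**Figure D1:**
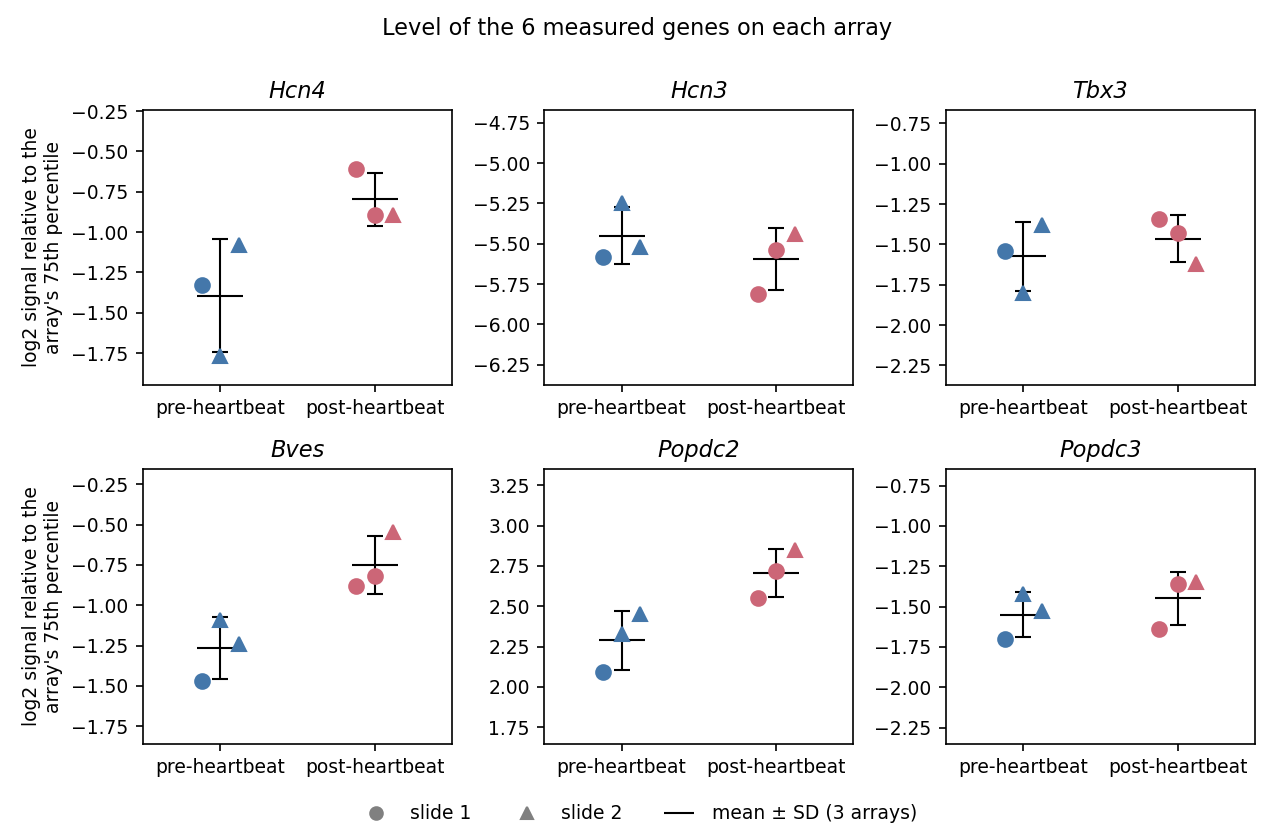
The level of each measured gene on each array, in log2 units above or below that array's 75th percentile, with circles for slide 1, triangles for slide 2, and lines for the mean and SD of 3 arrays. All panels span the same number of log2 units, and the groups are apart for Hcn4, Bves and Popdc2 and overlap for Hcn3, Tbx3 and Popdc3.

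Among the pacemaker channels, Hcn4 had the largest difference between the groups among the 6 genes in the fit on groups alone, while Bves had the largest with the slide as a block. Its probe is at chr8:62667159-62667218 on the plus strand of rn4, the genome build of the array annotation. Its levels were -1.33, -1.77 and -1.08 on the pre-heartbeat arrays and -0.61, -0.89 and -0.89 on the post-heartbeat arrays. The pre-heartbeat arrays were lower and more spread than the post-heartbeat arrays, and the gap between the groups lay between pre-heartbeat replicate 3 and post-heartbeat replicate 2. The mean was -1.39 ± 0.35 (SD, n = 3) before and -0.80 ± 0.16 (SD, n = 3) after the first heartbeat, a 1.51-fold higher signal. The log2 fold change was 0.60 with an SE of 0.21 and a 95% interval of 0.11 to 1.09 (limma, unadjusted p = 0.0237, adjusted p = 0.539). The exact permutation test gave a two-sided p of 0.1, which is the smallest p that 3 arrays against 3 allow. With the slide as a block the change of Hcn4 was 0.56 (limma, adjusted p = 0.389), and the means differed by 0.58 within slide 1 and 0.53 within slide 2. In bulk RNA of a whole primordium, more cells that express a gene and more RNA per cell cannot be told apart, which applies to all the changes given here.

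Hcn3, which encodes another channel of the family, had a dim signal of 22.4 to 39.1 intensity units that was well above background on all 6 arrays. Its levels were -5.58, -5.25 and -5.52 before and -5.81, -5.54 and -5.44 after the first heartbeat. The groups overlapped, with the highest and the lowest value on a pre-heartbeat and a post-heartbeat array, respectively. Its log2 fold change was -0.15 with an SE of 0.17 and a 95% interval of -0.54 to 0.25 (limma, adjusted p = 0.864). Within slides the differences were -0.10 and -0.05, and the change was -0.08 with the slide as a block (limma, adjusted p = 0.999).

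The change of Hcn4 was larger than that of Hcn3 by 0.74, and taken array by array this difference did not overlap between the groups. The exact permutation test gave a p of 0.1, the smallest it allows, and an adjusted p of 0.133 over 4 pairs within the gene families, which were chosen after the values were seen. Hcn2 at chr7:11485814-11485873 gave 4.88, 4.79 and 10.4 intensity units before and 6.77, 4.79 and 5.0 after the first heartbeat, and was well above background on 0 of 6 arrays. These arrays therefore give no level and no change for Hcn2.

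The transcription factor Tbx3 was measured on all 6 arrays with a probe at chr12:38155887-38155946 on the minus strand of rn4. Its levels were -1.54, -1.80 and -1.38 in the pre-heartbeat group and -1.34, -1.43 and -1.62 in the post-heartbeat group. The lowest array was a pre-heartbeat one, but the other arrays of both groups were interleaved. For Tbx3 the log2 fold change was 0.11 with an SE of 0.16 and a 95% interval of -0.28 to 0.50 (limma, adjusted p = 0.868). It was 0.06 in the fit with the slide block (limma, adjusted p = 0.999). The difference was 0.15 within slide 1 and -0.03 within slide 2, and the change was -0.0017 without pre-heartbeat replicate 2, so no direction can be given for Tbx3. The probes of Shox2 at chr2:156883840-156883899 and chr2:156881512-156881571 gave 4.7 to 11.1 intensity units, and neither was well above background on any array.

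The levels of these genes rest on 1 oligonucleotide of 60 bases per gene. Those of Tbx3, Hcn3 and Bves are shown because they are the sequences whose signal is compared, in the direction of the transcript.
Tbx3 probe: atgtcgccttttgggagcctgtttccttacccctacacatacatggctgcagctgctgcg
Hcn3 probe: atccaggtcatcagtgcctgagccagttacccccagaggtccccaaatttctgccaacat
Bves probe: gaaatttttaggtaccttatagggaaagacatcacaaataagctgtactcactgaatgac
The GC content was 55.0% for Tbx3, 53.3% for Hcn3 and 35.0% for Bves. All bases are in lower case because no part of a probe is singled out.

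Bves, also known as Popdc1, was the Popeye gene with the largest change. Its probe is at chr20:49670954-49671013 on the plus strand of rn4. Its levels were -1.47, -1.09 and -1.24 in the pre-heartbeat group and -0.88, -0.82 and -0.55 in the post-heartbeat group. All post-heartbeat arrays were above all pre-heartbeat arrays, and in each group the lowest value was on slide 1. The means were -1.27 ± 0.19 and -0.75 ± 0.18 (SD, n = 3 each), which is a 1.43-fold higher signal after the first heartbeat. This is a log2 fold change of 0.52 with an SE of 0.17 and a 95% interval of 0.12 to 0.91 (limma, unadjusted p = 0.0175, adjusted p = 0.469, exact permutation p = 0.1). With the slide as a block it was 0.62 with an SE of 0.13 and an interval of 0.32 to 0.92, and the adjusted limma p was 0.0733. This p was 0.0605 to 0.478 when each array was left out of that fit in turn, so Bves did not pass the threshold in any of them. The differences within slide 1 and slide 2 were almost the same, at 0.62 and 0.62.

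Popdc2, which is expressed in heart and skeletal muscle, came after Hcn4 and Bves in size of change. Its probe is at chr11:64154408-64154467 on the minus strand of rn4. Its levels were 2.09, 2.33 and 2.45 in the pre-heartbeat group and 2.55, 2.72 and 2.85 on the post-heartbeat arrays. Between the groups there was no overlap, but the highest pre-heartbeat and the lowest post-heartbeat array were close to each other and on different slides. The means were 2.29 ± 0.18 and 2.71 ± 0.15 (SD, n = 3 each), a 1.34-fold higher signal. The change of Popdc2 on the log2 scale was 0.42 with an SE of 0.16 and a 95% interval of 0.04 to 0.80 (limma, unadjusted p = 0.0345, adjusted p = 0.633, exact permutation p = 0.1). With the slide as a block it was 0.50 (limma, adjusted p = 0.156), and it was 0.54 within slide 1 and 0.47 within slide 2.

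Popdc3 had a smaller difference than the other Popeye genes. The array annotation gives no position for its probe. Its levels were -1.70, -1.42 and -1.53 in the pre-heartbeat group and -1.64, -1.36 and -1.35 in the post-heartbeat group, and these ranges overlapped in large part. On the log2 scale the change was 0.10 with an SE of 0.15 and a 95% interval of -0.26 to 0.47 (limma, adjusted p = 0.868). It was 0.16 in the fit with the slide block (limma, adjusted p = 0.937). The difference was 0.20 within slide 1 and 0.12 within slide 2.

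**Figure D2:**
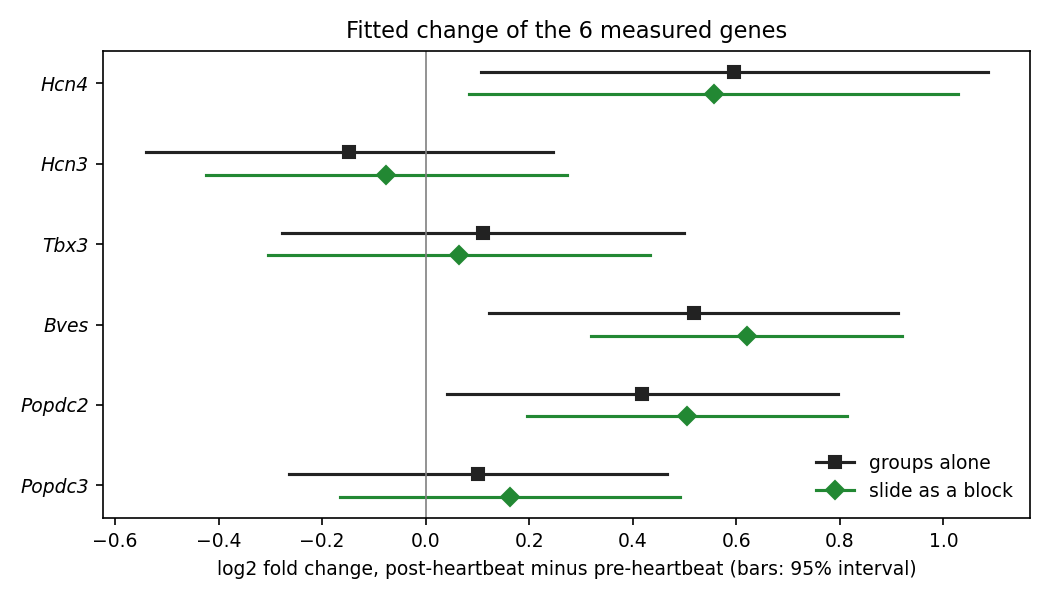
The log2 fold change of each measured gene, post-heartbeat less pre-heartbeat, with bars for the 95% interval from limma, for the fit on groups alone (black squares) and with the slide as a block (green diamonds). The intervals of Hcn4, Bves and Popdc2 are above 0 in both fits before adjustment over all probes, and those of Hcn3, Tbx3 and Popdc3 span 0 in both.

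The 3 Popeye genes were set against each other on the same arrays. The change of Bves was larger than that of Popdc3 by 0.42, and the change of Popdc2 was larger than that of Popdc3 by 0.32, both with no overlap between the groups when taken array by array. The change of Bves and that of Popdc2 differed by 0.10, with overlap. The exact permutation p was 0.1 for the first and the second pair (adjusted p = 0.133) and 0.3 for the last. This test cannot give a p below 0.1 here, so no pair could pass the threshold. The pairs were chosen after the values were seen. Within slide 1 and slide 2 the difference was 0.42 and 0.50 for Bves less Popdc3 and 0.34 and 0.34 for Popdc2 less Popdc3. Over the 6 arrays the levels of Bves and Popdc2 had a Pearson r of 0.95, while r was 0.70 for Bves and Popdc3 and 0.73 for Popdc2 and Popdc3. These arrays share the slides and the groups, and the r values carry no test.

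Bves and Popdc3 are neighbors on rat chromosome 20, with 0 annotated genes between them in RefSeq. Windows of 300 bases, from 250 bases before to 50 after an annotated start of the gene, are shown for the Popeye genes, which were compared above. They come from RefSeq on GRCr8, which is not the build of the array positions, and 4 of the 8 genes had a window. The M-CAT motif, CATTCC on either strand, which is bound by TEAD factors in muscle genes, is in capitals. Only this motif, of those searched, was found in Bves and Popdc2 but not in Popdc3. Whether any of these sequences relates to the changes was not tested. In the windows of Bves and Popdc2, the start used is inside the outer limit of the gene, so another start may lie upstream. The bases before the start may then be intron, and their motifs and GC content need not be those of a promoter.
Bves, chr20:50404434-50404733, plus strand: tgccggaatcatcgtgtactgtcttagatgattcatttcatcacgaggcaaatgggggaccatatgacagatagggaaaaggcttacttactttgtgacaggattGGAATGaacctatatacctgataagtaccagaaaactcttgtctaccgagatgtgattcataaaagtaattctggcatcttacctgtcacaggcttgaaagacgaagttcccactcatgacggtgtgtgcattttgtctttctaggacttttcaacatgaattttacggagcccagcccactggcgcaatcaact
Popdc2, chr11:75896220-75896519, minus strand: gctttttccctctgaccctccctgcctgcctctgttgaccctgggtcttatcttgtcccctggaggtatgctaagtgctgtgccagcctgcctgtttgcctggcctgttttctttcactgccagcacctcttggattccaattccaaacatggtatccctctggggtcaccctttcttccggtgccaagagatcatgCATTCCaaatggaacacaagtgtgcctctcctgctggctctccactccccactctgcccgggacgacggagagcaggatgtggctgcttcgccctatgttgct
Popdc3, chr20:50354525-50354824, plus strand: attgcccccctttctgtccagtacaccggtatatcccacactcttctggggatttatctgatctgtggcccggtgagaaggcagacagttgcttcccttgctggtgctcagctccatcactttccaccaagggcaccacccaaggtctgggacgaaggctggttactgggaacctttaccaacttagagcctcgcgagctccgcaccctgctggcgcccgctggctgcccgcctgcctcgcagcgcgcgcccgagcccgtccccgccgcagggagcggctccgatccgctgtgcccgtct
The window of Popdc3 had a GC content of 63.7% and 21 CpG, that of Popdc2 56.0% and 5, and that of Bves 42.7% and 8, with a median GC content of 51.7% over 33469 windows of the same length. The M-CAT letters were found 1 time in Bves, 1 time in Popdc2 and 0 times in Popdc3, and in 14.2% of all windows. They were also found 1 time in the window of Hcn2, a gene not well above background on any array. The GATA motif AGATAA was found 1 time in Popdc2 and 1 time in Popdc3 against 11.6% of all windows. The Nkx2-5 motif AAGTG was found 2 times in Popdc2 and 1 time in Popdc3 against 46.2%, the cAMP response motif TGACG 1 time in Bves against 21.2%, and the T-box motif TCACAC in none of the 3 against 13.7%. Motifs were searched on both strands, no match shares a base with another in these windows, and a match is a description of letters and not of binding.

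The levels of the 6 genes were also compared between the slides, and none passed the threshold. With the group in the fit, slide 2 less slide 1 was 0.31 for Bves (limma, adjusted p = 0.144), 0.26 for Popdc2 (limma, adjusted p = 0.219) and 0.21 for Hcn3 (limma, adjusted p = 0.353). It was 0.19 for Popdc3, -0.14 for Tbx3 and -0.12 for Hcn4, with adjusted p from 0.389 to 0.714 by limma.

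**Figure D3:**
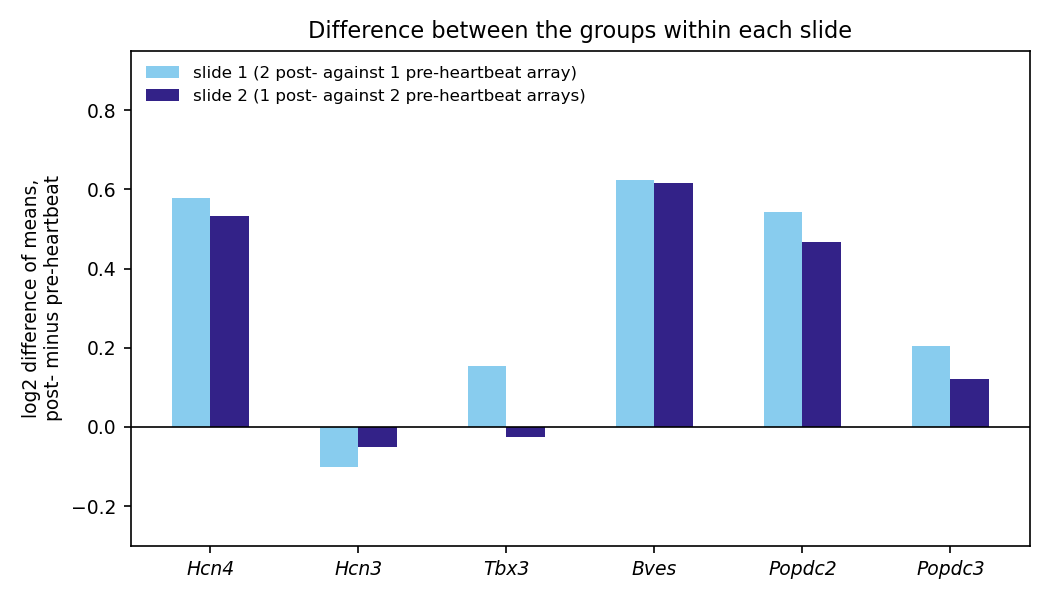
The difference of means on the log2 scale between post-heartbeat and pre-heartbeat arrays within each slide, with bars from 0 and no error because 1 of the groups has a single array on each slide. Hcn4, Bves and Popdc2 have bars of 0.47 to 0.62 on both slides, and the bars of Tbx3 point in opposite directions.

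The study selected genes by size and by the Tukey HSD test, with at least 1.5-fold and p below 0.05. Applied here in both directions with p not adjusted, this selection held 366 of the tested probes (1.9%) as higher and 223 (1.16%) as lower. None of the 6 genes was among them. Hcn4 reached the fold but not the p of the selection, and Bves and Popdc2 reached the p but not the fold. With the slide as a block 1 gene, Bves, entered the selection at 1.54-fold. Without pre-heartbeat replicate 2 Bves entered it at 1.52-fold, and without pre-heartbeat replicate 3 Hcn4 entered it at 1.68-fold. The share of all tested probes in the selection was not counted for these other fits, so these entries have no background to be read against.

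The genes around these regulators were described by 5 lists written from general knowledge, with earlier results of these data known. In the list of other pacemaker and conduction currents, 15 of 19 genes were tested, 1 was called higher and 0 lower, and with the slide as a block 5 were called higher and 1 lower, where 1.09% and 0.42% of all tested probes were called. Their median log2 fold change was 0.57, against -0.02 over 12707 tested genes. Pln, which encodes phospholamban, the inhibitor of the calcium pump of the sarcoplasmic reticulum, was the one called without the block. Its levels were -2.68, -2.68 and -2.51 before and -0.50, 0.04 and -0.24 after the first heartbeat, a log2 fold change of 2.39 (limma, adjusted p = 0.0172), and 2.40 with the slide as a block (limma, adjusted p = 0.00355). The call of Pln without the block was lost when any 1 of the 6 arrays was left out (limma, adjusted p from 0.0635 to 0.153), with changes of 2.25 to 2.52. The pump gene itself, Atp2a2, had a change of -0.09.

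The others were not called in the fit on groups alone and were called with the slide as a block. All 6 calls of that fit were lost without post-heartbeat replicate 3, and all but that of Cacna1h without pre-heartbeat replicate 1, each of which is the only array of its group on its slide. The T-type calcium channel gene Cacna1h had a change of 2.26 (limma, adjusted p = 0.0226), which ran from 1.44 to 3.08 when each array was left out. It was well above background on 1 of 3 pre-heartbeat and on 3 of 3 post-heartbeat arrays, so it was tested through the post-heartbeat group alone. Its change and p rest in part on pre-heartbeat values that were not well above background. The L-type channel genes Cacna1c and Cacna1d had changes of 0.86 and 0.99 in the fit with the slide as a block (limma, adjusted p = 0.0459 and 0.0216). Gja1, the gene of connexin 43, the gap junction protein of working heart muscle, had levels of 2.24, 2.21 and 2.04 before and 1.42, 1.30 and 1.32 after the first heartbeat, and was the one called lower, at -0.84 (limma, adjusted p = 0.0297). Kcna5, an atrial potassium channel, was in the selection of the study at a change of 0.89 and was not called in either fit (limma, adjusted p = 0.204 for groups alone and 0.0544 under the slide block). Leaving out post-heartbeat replicate 1 also ended the calls of Cacna1c and Gja1 among the genes named, leaving out post-heartbeat replicate 2 those of Cacna1c and Gja1, and leaving out pre-heartbeat replicate 2 that of Cacna1h.

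**Figure D4:**
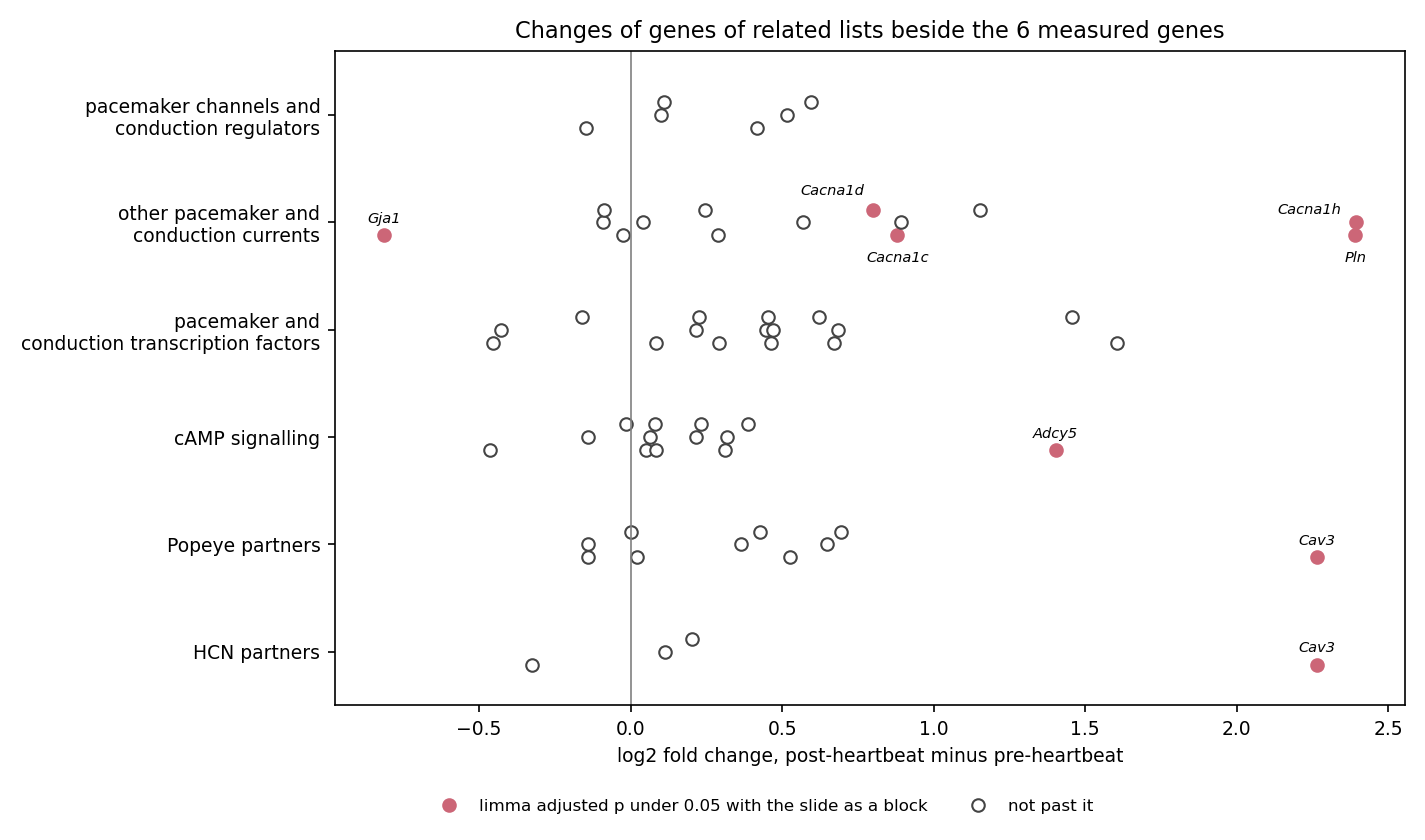
The log2 fold change, post-heartbeat less pre-heartbeat, of tested genes in the pacemaker set and in the 5 related lists, from the fit on groups alone. Filled points are genes past an adjusted limma p of 0.05 with the slide as a block, and they include Pln, Cacna1c, Cacna1d, Cacna1h and Gja1 of the currents list and none of the 6 measured pacemaker genes.

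Among 16 transcription factors and signals of pacemaker and conduction tissue, all tested, 0 were called in either fit. For 4 of them all post-heartbeat arrays were above all pre-heartbeat arrays and for 0 the reverse held, against 5.38% and 6.17% of all tested probes, and the median change was 0.45. Tbx18, a factor of the sinus venosus, had the largest change of the list, 1.61 (limma, adjusted p = 0.318), and was the only one in the selection of the study. It was well above background on 2 of 3 pre-heartbeat arrays, so it was tested through the post-heartbeat group alone. Under the slide block its change was 1.47 (limma, adjusted p = 0.175), and it was no longer in that selection. In the cAMP list, 13 of 20 genes were tested and 1 was called higher and 0 lower with the slide as a block, against 1.09% and 0.42% of all tested probes. This gene, Adcy5, a main adenylyl cyclase of heart, had levels of -2.67, -3.55 and -2.67 before and -1.49, -1.56 and -1.63 after the first heartbeat. Its change was 1.40 without the block (limma, adjusted p = 0.124) and 1.31 with it (limma, adjusted p = 0.0448), and the median of the list was 0.08. In the fit with the block, Adcy5 was not called without pre-heartbeat replicate 1, post-heartbeat replicate 1 or post-heartbeat replicate 3.

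Partners of the HCN channels were tested for 4 of 6 genes and those of the Popeye proteins for all 10. In both lists the only gene called with the slide as a block was Cav3, the caveolin of muscle, which is a member of both. Of all tested probes, 1.09% were called higher and 0.42% lower in that fit. Cav3 was well above background on 0 of 3 pre-heartbeat and on 3 of 3 post-heartbeat arrays, so it was tested through the post-heartbeat group alone. Pre-heartbeat values below the dimmest signal above background on their array were raised to it. The signal of Cav3 was then 4.34-fold higher in the post-heartbeat group. Some probes brighter than that limit were not well above background, so this is not a strict lower bound. The adjusted limma p of Cav3 was 0.0597 for groups alone and 0.0174 under the slide block. Both rest on pre-heartbeat values that were not well above background. In the fit with the slide block Cav3 was not called without pre-heartbeat replicate 1 or post-heartbeat replicate 3. Ndrg4, which was in the selection of the study, had a change of 0.69 (limma, adjusted p = 0.234) and of 0.73 with the slide as a block (limma, adjusted p = 0.0868). Kcnk2, the potassium channel bound by Popeye proteins, had a change of 0.36, with levels of -3.66, -3.89 and -3.81 before and -3.47, -3.39 and -3.42 after the first heartbeat. The median of the Popeye partners was 0.39 and that of the HCN partners was 0.16, from 4 genes.

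Marker lists of heart muscle and of other cell types are given beside the changes of Hcn4, Bves and Popdc2, since the summed levels of most of them differed between the groups. The median change over all 19299 tested probes was -0.03, so slightly more of them were lower than higher in the post-heartbeat group. Of these probes, 0.124% were called higher and 0.0207% lower, and 1.09% and 0.42% with the slide as a block. All 10 cardiac muscle genes had higher means in the post-heartbeat group, with changes from 0.28 to 3.46 and a median of 0.70. Of these genes 1, Myl2, was called higher, and 4 were with the slide as a block. Without 1 array, Myl2 was called in 3 of 6 fits. The summed level of the cardiac muscle genes was 8.54 to 9.30 in the pre-heartbeat group and 9.43 to 9.70 in the post-heartbeat group. Of the neural ectoderm list, 5 genes were tested, and 4 of them were lower after the first heartbeat. Otx2, of the forebrain, was called lower at -1.56 (limma, adjusted p = 0.0201), a call that was lost when any 1 array was left out, and the summed level was 2.81 to 3.05 before and 1.62 to 1.94 after, while Six3, Zic1 and Map2 were not well above background on any array. Its mean level over the tested genes was -1.49 to -1.04 before and -2.09 to -1.70 after, also with no overlap. In the other lists a sum weights the brightest genes most, and the mean levels overlapped between the groups in each. Paraxial mesoderm had a sum of 4.46 to 4.63 before and 4.68 to 4.78 after, with 6 of 6 tested genes higher, and a mean of -1.71 to -0.62 before and -1.04 to -0.37 after. Endothelial genes had a sum of 4.26 to 4.31 before and 3.84 to 3.95 after, with 8 of 10 lower, and a mean of -0.92 to -0.69 before and -1.02 to -0.88 after. For yolk sac endoderm the sum was 5.71 to 5.80 before and 5.06 to 5.48 after, with 7 of 9 lower, and the mean was 0.04 to 1.25 before and -0.19 to 0.78 after. For erythroid genes the sum was -0.48 to 0.61 before and 0.87 to 1.05 after, with 3 of 5 higher, and the mean was -3.69 to -3.09 before and -3.22 to -2.80 after. The sums of foregut endoderm, at 3.43 to 3.48 and 3.25 to 3.46, and of pharyngeal or limb mesenchyme, at 1.26 to 2.53 and 1.21 to 2.08, overlapped between the groups. The part of these differences in the changes of Hcn4, Bves and Popdc2 was not tested.

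The genes with the most similar pattern over the 6 arrays were looked up for each measured gene among 12070 genes, as a description. For Bves they were Hdc, Hopx and Fstl4, each with an r of 0.99, and for Popdc2 they were Kcnmb1, LOC688173 and Myadml2, each with an r of 0.99. For Hcn4 they were Alpk3, Thap11 and Nid2 (r from 0.989 to 0.995), and for Tbx3 Hdac10, Ppox and Ap4m1 (r from 0.98 to 0.99). For Popdc3 they were Stxbp6, Cox7a2l and Rd3l, and for Hcn3 Vom2r34, Morf4l1 and Krit1. These r values rest on 6 points that share slide and group, and they carry no test. Hopx, which encodes a homeodomain protein of heart muscle, is also in the list of transcription factors, with levels of -4.16, -3.90 and -4.04 before and -3.69, -3.66 and -3.35 after the first heartbeat.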

How the data were processed

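RNA of heart primordia was measured in 3 pre-heartbeat and 3 post-heartbeat samples on 1-color Agilent rat arrays, 1 per sample. The authors quantified spots with Agilent Feature Extraction 10.7.3.1 and deposited for each spot a processed signal, an intensity with the background subtracted and not normalized between arrays. A second deposited table holds linear ratios, which the authors made by scaling to the 75th percentile and to a baseline per probe. Those ratios served as an alternative. Control and outlier spots were left out, log2 of the signal less the 75th percentile of the array was taken, and spots of a probe were averaged. A probe was well above background on an array if no fewer of its spots were marked so than not, and it was tested if this held on all 3 arrays of one group or of both (63.6% of 30367 probes). A gene was represented by its probe with the highest mean signal, and 18006 probes were matched to a current symbol.

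The groups were compared by limma 3.58.1 (lmFit and eBayes) with the data.table package (version 1.17.8) under R 4.3.3, with Benjamini-Hochberg adjustment over all tested probes and a threshold of 0.05, after the steps had been tested on simulated data. For each gene an exact two-sided permutation test over the 20 arrangements of the arrays was added. The Tukey HSD test is, for 2 groups, a pooled comparison of means. Alternatives were the slide or the replicate number as a block, normexp with an offset of 50, quantile normalization, a percentile over probes above background on all arrays, other filters, the ratios of the authors, an intensity trend, the mean of the probes of a gene, the selection at 2-fold or with the limma p, and leaving out each array. Leaving out arrays together with the slide as a block was chosen after seeing the data. The slide is that of the array barcode. A gene not above background in 1 group had its values there raised, where lower, to the dimmest signal above background on each array. The fold from these values is not a strict lower bound, because some brighter probes were not well above background. The summed level of a list is log2 of the sum of the relative signals of its tested genes. The number of arrays limits the precision.

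The genes and the lists were chosen with earlier results of these data known. The genes named are the 8 regulators and the 3 genes most alike in pattern to each measured one. Genes of the related lists are named if past the limma threshold or in the selection of the study, with or without the slide as a block. Not all genes of the marker lists that met these criteria are named. Atp2a2, Kcnk2, Hopx and the marker genes were named after their values were seen. Values of 2 list genes are not reported here, though they are counted in their lists.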

Additional observations from a re-analysis of the deposited data

How the results depend on the processing

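Of the 6 measured genes, 0 were called by limma under any of 16 alternatives, with the lowest adjusted p at 0.0733 for Bves with the slide as a block. The other 5 genes beside Tbx3 kept their direction under all 16, with log2 fold changes of 0.41 to 0.62 for Bves, 0.41 to 0.75 for Hcn4, 0.32 to 0.50 for Popdc2, 0.02 to 0.19 for Popdc3 and -0.23 to -0.04 for Hcn3. Tbx3 reversed without pre-heartbeat replicate 2, at -0.0017, and otherwise ranged up to 0.21. The number of the 6 genes in the selection as higher was 0, and 1 with the slide as a block, 1 with the limma p, and 0 to 1 when arrays were left out in turn. The share of all tested probes in the selection was counted only for the fit on groups alone.

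Over all probes, 24 were called higher and 4 lower. The numbers were 211 and 81 with the slide as a block. The deviations of same-numbered arrays correlated at 0.65, -0.28 and 0.49 for replicates 1, 2 and 3. Only the arrays of replicate 2 were on different slides, and differently numbered arrays on the same slide correlated at 0.496 and 0.5. These values therefore cannot tell whether the replicate numbers pair the samples. With the replicate block 110 and 56 were called. Higher calls were 43 with normexp, 11 with quantile normalization, 10 with the ratios of the authors, 38 with an intensity trend and 1 with no filter, and lower calls were 7 with an intensity trend and 0 with no filter. Leaving out arrays gave 0 to 1 higher and 0 to 1 lower calls. With the slide as a block, leaving out arrays gave 0 to 216 higher and 0 to 110 lower calls, with 4 and 0 without pre-heartbeat replicate 1 and 0 and 1 without post-heartbeat replicate 3. Of the currents list, 1 was called, against 6 with the slide as a block, 3 with the replicate block, 2 with normexp, 0 with no filter and 0 when arrays were left out. For the HCN partners and the Popeye partners the number was 0, and became 1 under the slide block, with the replicate block and with the mean of the probes of a gene, and for cAMP signalling it became 1 under the slide block, the replicate block and with normexp. The causes were not tested.

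With 3 arrays a group, the intervals of Tbx3, Popdc3 and Hcn3 span 0 and reach beyond their changes, so changes of that size were not detectable. A dim probe such as that of Hcn3 has few intensity units over background.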
